A study of Mus musculus with 6 samples.

Results

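Mutually exclusive exons are neighbouring exons of which a transcript is expected to carry one or the other. The 2969 events described here are those whose 2 exons have lengths that are equal modulo 3, so that a switch between them leaves the reading frame downstream unchanged. They were taken from the 7796 mutually exclusive exon events in the authors' deposited table, of which they make up 38.1%, with the further condition that reads averaged 20 or more over the 6 libraries. They cover 2601 different exon pairs in 1815 genes, since the same pair can be listed with other flanking exons. The libraries were polyA RNA of small intestinal crypt cells from C57BL/6 mice 60 days old. The 3 WT samples had the genotype Ptbp1f/f, with floxed alleles and no Cre, and the 3 PTBP1_KO samples Ptbp1f/f;Vil-creER+/-, in which a tamoxifen-dependent Cre is driven by villin regulatory sequence in the intestinal epithelium. Tamoxifen was given to WT and PTBP1_KO alike, 100 mg/kg on each of 2 consecutive days, and crypts were taken 20 h after the last injection. Cells outside the epithelium keep their floxed alleles, and in bulk RNA a change in the cells present and a change within a cell cannot be told apart.

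The splicing tables compare a first and a second set of 3 libraries without stating in their headers which genotype each set holds. Every direction below is therefore by set, and the libraries were not averaged as replicates of a genotype. The labels do not say that each library came from its own mouse, so the authors' p-values may measure technical spread.

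Exons of this kind often arose as tandem copies, and each copy then encodes its own version of the same protein segment. PTBP1 is an RNA-binding protein that binds pyrimidine-rich RNA, often in the intron before an exon, and is known mainly as a repressor of exons, among them the muscle-type exon of the pyruvate kinase gene Pkm. In several such pairs it takes part in the choice of exon.

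The value reported for each library is the share of the upstream exon, the one first in transcript order, recomputed from the reads supporting each exon after division by the effective length of each form. In all 7796 events the difference of the form lengths equalled the length of the upstream minus the downstream exon, which fixed this orientation. The recomputed levels lay within 0.0005 of the deposited ones. An event was called when the authors' deposited table gave an FDR below 0.05 and an absolute difference in inclusion of at least 0.1.

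The sequences of the pairs on which the results turn are shown first, from GENCODE M21 transcripts on GRCm38 (mm10), 5' to 3', with both exons of each pair fully coding. In pairs of equal length, capitals mark the bases that differ between the 2 exons when they are laid side by side without gaps. Tpm1 and Tpm2 encode tropomyosins, the coiled-coil proteins that lie along actin filaments, and their pairs switched in both genes. The Tpm1 exons differ at 33 of 76 bases and the Tpm2 exons at 35.
Tpm1 upstream exon, chr9:67032466-67032541, minus strand: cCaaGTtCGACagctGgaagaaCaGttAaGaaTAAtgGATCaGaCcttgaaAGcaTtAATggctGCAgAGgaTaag
Tpm1 downstream exon, chr9:67031951-67032026, minus strand: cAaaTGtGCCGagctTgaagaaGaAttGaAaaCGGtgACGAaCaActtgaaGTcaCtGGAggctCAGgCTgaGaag
Tpm2 upstream exon, chr4:43519003-43519078, minus strand: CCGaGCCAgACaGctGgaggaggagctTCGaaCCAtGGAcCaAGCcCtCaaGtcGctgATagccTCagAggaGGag
Tpm2 downstream exon, chr4:43518644-43518719, minus strand: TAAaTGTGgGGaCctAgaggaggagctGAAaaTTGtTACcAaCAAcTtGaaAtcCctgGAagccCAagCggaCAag

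Tead3, a TEAD family transcription factor of the Hippo pathway, and Relch, a protein of recycling endosomes, gave further fully coding called pairs of equal length. The Tead3 exons differ at 23 of 63 bases and those of Relch at 32 of 83.
Tead3 upstream exon, chr17:28336511-28336573, minus strand: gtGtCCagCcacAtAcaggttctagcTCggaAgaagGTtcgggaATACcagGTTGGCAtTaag
Tead3 downstream exon, chr17:28336274-28336336, minus strand: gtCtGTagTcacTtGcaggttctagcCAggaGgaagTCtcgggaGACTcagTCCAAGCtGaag
Relch upstream exon, chr1:105740435-105740517, plus strand: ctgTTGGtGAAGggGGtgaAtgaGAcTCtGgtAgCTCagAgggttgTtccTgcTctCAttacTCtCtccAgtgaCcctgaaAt
Relch downstream exon, chr1:105741013-105741095, plus strand: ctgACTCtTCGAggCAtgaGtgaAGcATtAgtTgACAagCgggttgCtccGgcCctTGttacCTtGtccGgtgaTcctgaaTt

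The Pkm exons are shown as the best known pair of PTBP1, with 64 of 167 bases different. The upstream exon belongs to the muscle-type enzyme M1 and the downstream exon to the form M2.
Pkm upstream exon, chr9:59675029-59675195, plus strand: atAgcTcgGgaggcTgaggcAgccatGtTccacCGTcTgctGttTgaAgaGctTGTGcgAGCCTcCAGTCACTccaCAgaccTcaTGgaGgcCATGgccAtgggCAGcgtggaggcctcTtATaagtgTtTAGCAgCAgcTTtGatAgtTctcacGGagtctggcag
Pkm downstream exon, chr9:59675568-59675734, plus strand: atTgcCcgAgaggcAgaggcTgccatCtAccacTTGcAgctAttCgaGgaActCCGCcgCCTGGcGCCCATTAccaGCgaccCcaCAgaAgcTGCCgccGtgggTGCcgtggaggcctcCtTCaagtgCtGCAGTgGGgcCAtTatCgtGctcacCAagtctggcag

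Clta, Sidt2 and Tmem87a are shown as pairs of unequal length with large called differences. Their sequences are given without capitals because the exons have no base-by-base register.
Clta upstream exon, chr4:44030215-44030268, plus strand: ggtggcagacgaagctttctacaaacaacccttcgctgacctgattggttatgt
Clta downstream exon, chr4:44031400-44031435, plus strand: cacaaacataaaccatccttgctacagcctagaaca
Sidt2 upstream exon, chr9:45947629-45947697, minus strand: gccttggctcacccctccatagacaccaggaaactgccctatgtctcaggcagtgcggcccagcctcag
Sidt2 downstream exon, chr9:45947541-45947552, minus strand: cttctctccttg
Tmem87a upstream exon, chr2:120374488-120374559, minus strand: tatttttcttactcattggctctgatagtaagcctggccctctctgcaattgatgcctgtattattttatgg
Tmem87a downstream exon, chr2:120373911-120373979, minus strand: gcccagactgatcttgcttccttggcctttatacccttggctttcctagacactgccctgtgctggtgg

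Of the 2969 events, 40 were called, which is 1.35%, against 1.02% of all 7358 exclusive exon events with the same read minimum (75 events). The 4389 events of different frame held 35 calls, 0.797%. By direction, 21 of the 40 had a higher upstream exon share in the first set and 19 in the second set, where all events gave 0.571% and 0.448%. The calls fell in 39 genes, because Relch was listed with 2 sets of flanking exons. With the authors' FDR alone, 96 events passed (3.23%, against 2.46% of all events), and 384 had an unadjusted p below 0.05 in the authors' deposited table.

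Most pairs used their exons alike in all 6 libraries. The median absolute difference between sets was 0.019 in the authors' deposited table, while the median range among the 3 libraries of a set was 0.0461 in the first set and 0.0465 in the second. The libraries of the sets did not overlap in 418 events, 14.1%, against 14.4% of all events, so separation of the libraries was as frequent here as in the table as a whole. Among the 40 called events 38 had sets that did not overlap, and the pseudogene Btnl5-ps was among the others. Ranges within a set were wider in called events, with medians of 0.0889 and 0.0742.

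**Figure D1:**
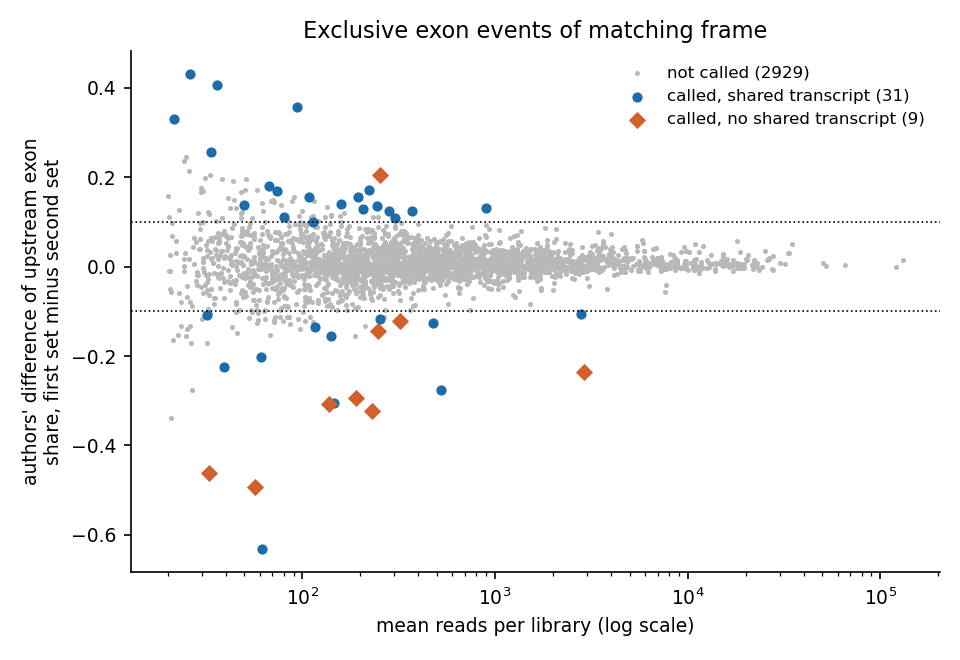
Difference in upstream exon share between the authors' sets (first minus second, y axis) against the mean reads per library (x axis, log scale) for the 2969 events, with dotted lines at a difference of 0.1 in either direction. Most called pairs with no shared annotated transcript (diamonds, 8 of 9) lie below zero.

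The listing as mutually exclusive rests on junctions between observed reads, and the annotation shows how far it holds. In 2483 of the 2601 pairs, 95.5%, at least 1 GENCODE transcript holds both exons. In 113 pairs, in 103 genes, both exons are annotated and no transcript holds both. The remaining 5 pairs have an exon that GENCODE M21 does not list with those ends. Because the deposited reads include those lying within an exon as well as those on junctions, transcripts that carry both exons add reads to both sides.

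Calls were more frequent in the pairs with no shared transcript, at 9 of 113 (7.96%), than in those with one, at 30 of 2483 (1.21%), beside 1.14% of all 6519 pairs of any frame. This difference was not tested, since pairs of a gene share reads. Of the 9, the upstream exon share was lower in the first set in 8, among them Sidt2, Tpm2, Tmem87a, Sbf2, Tmem87b, Tpm1 and Tead3, and higher in Cyfip1. Of the 30 with a shared transcript, 19 were higher in the first set and 11 lower. In the pairs of different frame with no shared transcript, 3 of 99 were called (3.03%).

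Pairs with no shared transcript also used their exons more one-sidedly, in either frame class. Over all libraries pooled, 40.7% of them had an upstream exon share below 0.05 or above 0.95, against 11.8% of the pairs with a shared transcript, and 34.5% against 75.5% lay between 0.2 and 0.8. In the pairs of different frame the extreme shares were 35.4% without and 12.4% with a shared transcript, so this was not particular to matching frame.

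**Figure D2:**
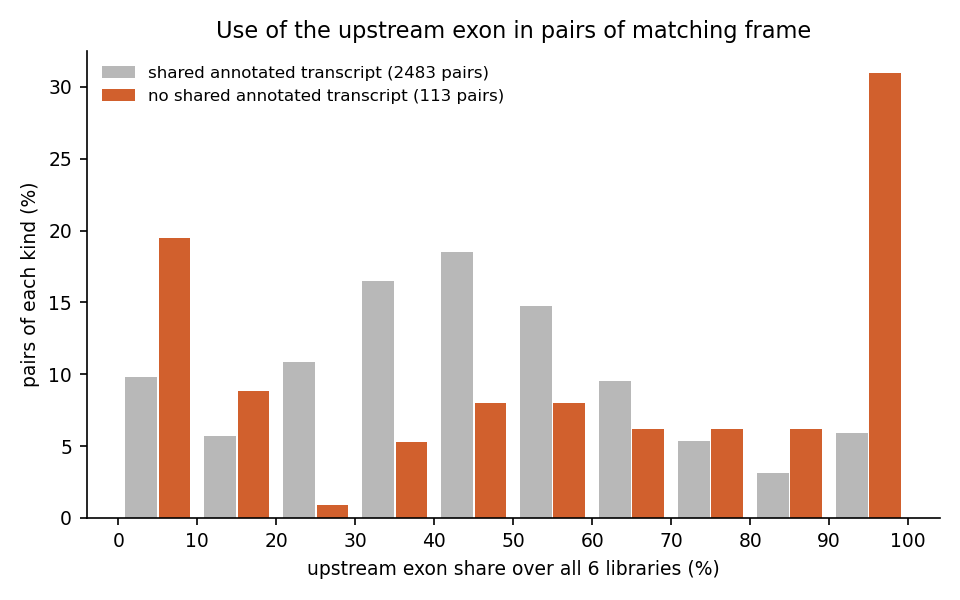
Upstream exon share over all 6 libraries (x axis, bins of 10%) as the percentage of pairs in each bin (y axis), for the 2483 pairs with a shared annotated transcript and the 113 without one. Of the latter, 31% fall in the highest bin and 19.5% in the lowest, and pairs with a shared transcript are most frequent between 40 and 50%.

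The same 113 pairs also differed from the rest in length, gap and coding phase, and the frame rule uses only the remainder of the lengths. Both exons had the same length in 31 of them (27.4%), against 5% of all 2601 pairs. Both exons were fully coding in 77 (68.1%), while this held in only 17.2% of the pairs of different frame with no shared transcript. In 74 of those 77 (96.1%) the exons began in the same codon phase, against 61.7% of all fully coding pairs of matching frame and 36.2% of those of different frame. Of the 17 fully coding pairs of different frame with no shared transcript, 7 did so (41.2%). Where a transcript holds both exons, the phase of the second also depends on the length of the first. The contrast in phase therefore follows in part from how the classes are defined. The median gap between the exons was 777 nt, against 2274 nt where a transcript held both, and 20.4% against 3.5% of gaps were shorter than 100 nt. In the pairs of different frame with no shared transcript the median gap was 1475 nt and 11.1% were shorter than 100 nt.

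In sequence, the 31 pairs of equal length with no shared transcript had a median identity of 63.2% in a global alignment, and 21 of them reached 60%. All 2594 aligned pairs of matching frame had a median of 45.1%, and the 99 pairs of different frame with no shared transcript 39.5%. Most of these differ in length, and gaps lower the identity. Pairs of equal length with a shared transcript had a median of 57.2%, and matching-frame pairs of unequal length with no shared transcript 45.3%. Without gaps, the pairs of equal length had medians of 58.8% with no shared transcript and 48.1% with one. Of the 31, 5 were called (16.1%), among them Tpm1, Tpm2, Tmem87b and Tead3, each with a lower upstream exon share in the first set. Of the other 99 pairs of equal length, 2 were called, Relch and Btnl5-ps, both with a higher share in the first set.

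**Figure D3:**
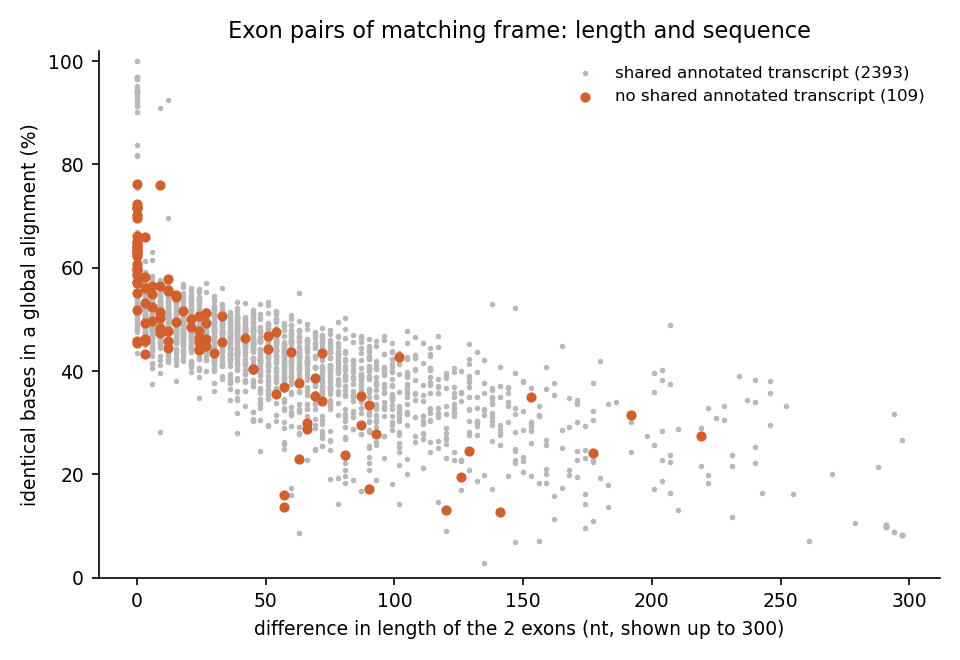
Identical bases in a global alignment of the 2 exons (y axis, %) against the difference in their lengths (x axis, nt, up to 300) for pairs with and without a shared annotated transcript. At a length difference of 0, the median identity is 63.2% in pairs with no shared transcript (large points) and 57.2% in pairs with one. Points above 90% all belong to pairs with a shared transcript.

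Among textbook pairs, the exons of 2 tropomyosin genes changed most. In Tpm1 the upstream exon share was 71.9, 82.2 and 71.0% in the first set and 98.5, 98.8 and 98.6% in the second, on at least 1956 reads per library. The sets did not overlap, and the downstream exon was almost absent from the second set. The authors' deposited table gave a difference of -0.236 with an FDR listed as 0. In Tpm2 the share was 27.8, 58.3 and 36.8% against 94.4, 87.0 and 80.0%, a difference of -0.462 with an FDR of 5.87e-06 in the authors' deposited table. Its reads were few, 19 in the lowest library, and the gene level was low, 1.15 FPKM in WT and 1.01 in PTBP1_KO. The corresponding Tpm3 pair was almost fixed on the upstream exon, at 97.7, 98.4 and 98.3% against 99.6, 99.4 and 99.3%. Its sets did not overlap and its FDR was 4.51e-06, but the difference of -0.013 in the authors' deposited table was below the threshold. All 3 genes had a lower upstream exon share in the first set.

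The Tpm1 exons resembled their counterparts in Tpm2 more than each other, by a small margin for the upstream exon. The downstream exons of Tpm1 and Tpm2 were 73.7% identical and the upstream exons 64.5%, against 63.4% within the Tpm1 pair and 60% within the Tpm2 pair. Between Tpm2 and Tpm3 the downstream exons were 76.3% identical. The Tpm2 upstream exon was closer to the Tpm3 downstream exon, at 68.7%, than to the Tpm3 upstream exon, at 63.6%.

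Tmem87a and Tmem87b encode related multi-pass membrane proteins of the Golgi, and both changed in the same direction. In Tmem87a the upstream exon share was 23.7, 39.4 and 25.8% in the first set and 59.4, 61.0 and 65.3% in the second. All second-set libraries lay above all of the first, and the authors' deposited table gave -0.323 with an FDR of 2.38e-11. The Tmem87b exons lie at chr2:128839148-128839219 and chr2:128840732-128840803 (plus strand). The shares there were 52.2, 59.4 and 50.4% against 79.1, 88.2 and 82.8%, again without overlap, and the authors' deposited table gave -0.294 with an FDR listed as 0. The downstream exons of both genes were 67.6% identical and the upstream exons 52.6%, and the pairs 53.2% and 51.9% within themselves. The downstream exon of Tmem87b is annotated in 1 transcript and holds no coding sequence there. Neither exon of either pair is listed as a skipped exon at the read minimum used for the exclusive exon events. Skipped exon listings with fewer reads were not examined, so these changes are described from the exclusive exon table alone.

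Clta, the light chain A of clathrin, had the largest difference of all. The 2 exons are known as neuron-enriched inserts. As a skipped exon, the downstream one was included at 0.978% over all libraries, on a mean of 4429 reads. The upstream one has 2 listings as a skipped exon at the same read minimum as the exclusive exon events. In the one with the smaller p it stood at 6.06% over all libraries, on a mean of only 53.2 reads. That listing was called, at -0.564 in the authors' deposited table, so its pooled value does not describe both sets. Among transcripts with one of them, the upstream exon made up 8.42, 2.07 and 6.85% in the first set and 87.9, 64.5 and 54.2% in the second. The sets lay far apart, but the second-set values rest on few reads, 6 in one library. The difference was -0.631 with an FDR of 4.03e-10 in the authors' deposited table. Reads of the downstream exon were 89, 86 and 136 in the first set and 1, 2 and 10 in the second. Those of the upstream exon were 9, 2 and 11 against 8, 4 and 13, so in these reads the share changed mainly through the downstream exon.

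Sidt2 and Sbf2 gave further large differences in share in the same direction. Sidt2 encodes a lysosomal membrane protein, and its upstream exon share was 29.8, 34.7 and 27.6% in the first set against 87.4, 76.0 and 77.0% in the second. Without overlap between sets, the authors' deposited table gave -0.494 with an FDR of 4.95e-13. Its downstream exon is a microexon of 12 nt, which as a skipped exon was also called, with a difference of 0.372 in the authors' deposited table. The upstream exon was not called there, at 0.064 with an FDR of 0.565. Reads of the downstream exon were 57, 40 and 46 in the first set and 4, 6 and 7 in the second. Those of the upstream exon were 33, 29 and 24 against 38, 26 and 32. Sbf2, a myotubularin-family regulator of Rab proteins, has its exons at chr7:110347887-110347982 and chr7:110341290-110341364 (minus strand), both coding. It had shares of 7.37, 7.46 and 4.23% against 38.8, 48.9 and 23.9%, and the authors' deposited table gave -0.308 with an FDR of 3.79e-11. Both of its exons were also called as skipped exons, with differences of -0.174 upstream and 0.592 downstream in the authors' deposited table.

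Relch changed the other way. Its upstream exon made up 100, 100 and 88.0% in the first set and 64.5, 31.6 and 63.0% in the second, so that the downstream exon had 0 reads in 2 of 3 first-set libraries. The authors' deposited table gave 0.43 with an FDR of 1.69e-07, on 19 reads in the lowest library. As skipped exons, the upstream exon was called at 0.485 and the downstream exon at -0.247 in the authors' deposited table. GENCODE holds 1 transcript with both Relch exons, 3 with the upstream exon alone and 1 with the downstream exon alone.

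Myl6, the essential light chain of non-muscle myosin, and Cspp1, a protein of centrosomes and spindles, also had higher upstream exon shares in the first set. Myl6 gave 43.4, 67.7 and 52.7% against 13.3, 0 and 28.5%, a difference of 0.407 with an FDR of 0.00015 in the authors' deposited table. Its mean of 36 reads is small for a gene at 934 FPKM in WT, and its upstream exon, without coding sequence in the annotation, was included at 0.0986% as a skipped exon. Cspp1 gave 30.9, 59.6 and 60.5% against 22, 13.6 and 16.1%, and the authors' deposited table listed 0.331 with an FDR of 0.026. The lowest Cspp1 library had 15 reads. Its exons are coding and lie at chr1:10059824-10059847 and chr1:10064333-10064413 (plus strand), and those of Myl6 at chr10:128493334-128493353 and chr10:128492939-128493045 (minus strand).

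Among the 20 genes of largest called difference were 10 others. In the authors' deposited table the upstream exon share was lower in the first set in Epb41l3, a membrane-skeleton protein, at -0.306, in Tpd52, a vesicle-traffic protein, at -0.277, and in Tmem25 at -0.201. It was also lower in Mier1, a transcriptional regulator, at -0.225, and in Trnau1ap, a cofactor of the selenocysteine tRNA, at -0.156 in the authors' deposited table. It was higher in the first set in Tsc22d2 at 0.257, in Cyfip1 at 0.206, in the noncoding gene 5530601H04Rik at 0.18, in the metalloprotease gene Adam15 at 0.172 and in the SH2 adaptor gene Hsh2d at 0.169 in the authors' deposited table. In all 10 of these genes the libraries of the sets did not overlap, as in 38 of the 40 called events. The choice of called pairs with large differences favours such separation. In Adam15 2 annotated transcripts hold both exons, and in Hsh2d 1. In the skipped exon listing of smallest p for each exon, none of these 4 exons was called. Inclusion over all libraries was 96.2 and 96% in Adam15 and 99.5 and 97.1% in Hsh2d. By mean reads, at 528, Tpd52 was the best covered after Tpm1 among the 20 largest. Its shares were 8.59 to 10.1% in the first set and 31.0 to 40.4% in the second. Its reads lay mostly in the first set. The downstream exon had 764, 810 and 1067 reads there against 63, 45 and 72, and the upstream exon 66, 84 and 97 against 26, 28 and 43. As skipped exons, the upstream exon was not called, at 0.023, and the downstream exon was, at 0.234 in the authors' deposited table. Cyfip1, a subunit of the actin-regulating WAVE complex, had 49.7 to 62.9% against 32.7 to 40.4%.

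Tead3 was singled out after its values were seen, as a called pair of equal length with no shared transcript. In Tead3 the upstream exon share was 82.4, 88.1 and 81.0% in the first set and 98.8, 98.4 and 97.8% in the second, a difference of -0.145 in the authors' deposited table. The pattern is that of Tpm1, with one exon nearly fixed in the second set.

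**Figure D4:**
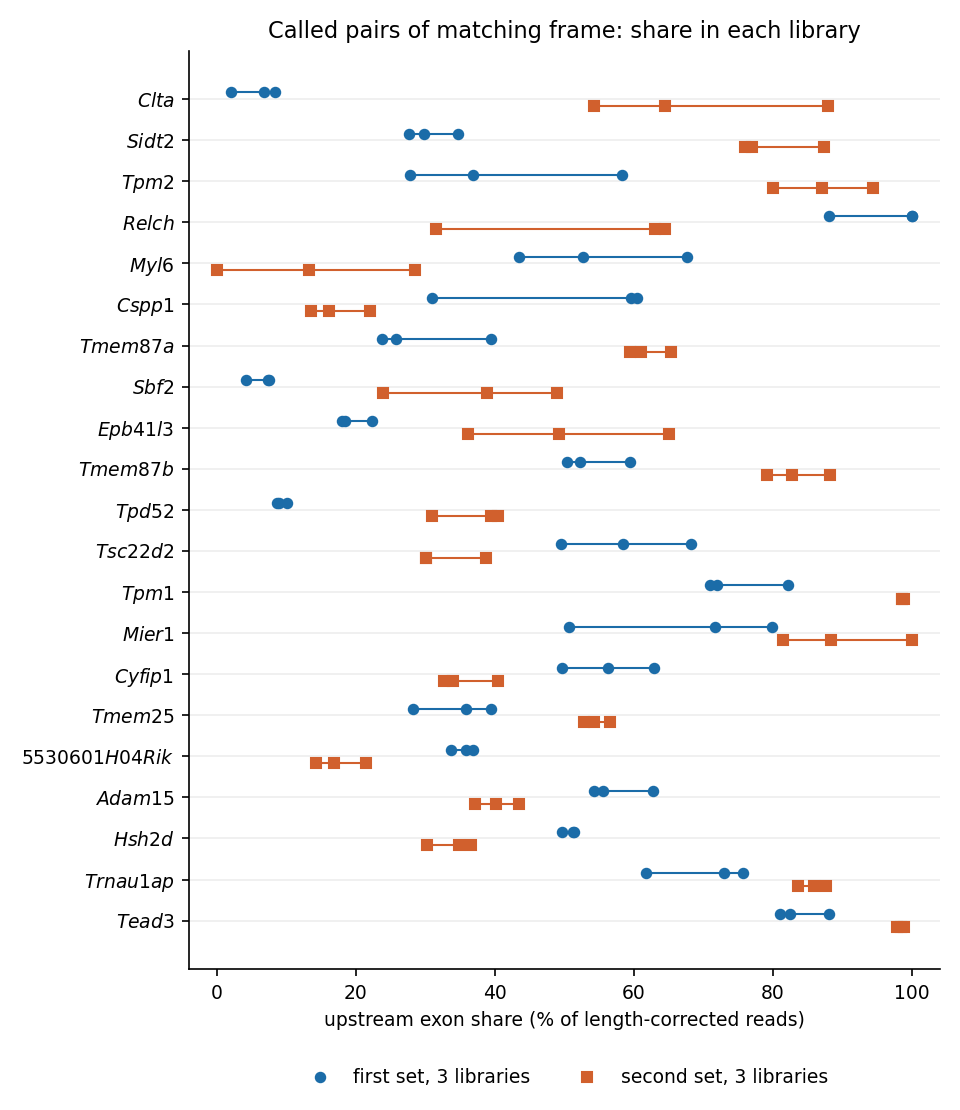
Upstream exon share (x axis, % of length-corrected reads) in each of the 3 libraries of the first set (circles) and second set (squares) for the 20 called genes with the largest difference and for Tead3; lines span the libraries of a set. In every row the sets do not overlap, which the choice of rows by large called differences favours.

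Of 27 genes chosen as textbook cases of exclusive exons, 20 had a pair here, and 19 of these pairs share no annotated transcript. Of the 20, 2 were called, Tpm1 and Tpm2, and 7 had an FDR below 0.05 in the authors' deposited table, 5 with a lower and 2 with a higher upstream exon share in the first set. In 12 of the 20, taking for each gene the pair with the smallest p, 1 exon held over 90% of the pair over all libraries.

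Pkm illustrates a small but even shift. Its muscle-type upstream exon made up 5.28, 4.89 and 6.47% in the first set and 2.6, 2.47 and 2.4% in the second, on at least 3611 reads per library. The sets did not overlap, and the authors' deposited table gave 0.031 with an FDR of 4.62e-12, below the size needed for a call. The M2 exon remained the main form in every library, at 96% over all reads.

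The actin crosslinker gene Actn4 had 94.6, 95 and 94.3% against 99.2, 99.8 and 99.2%, a difference of -0.048 with an FDR listed as 0 in the authors' deposited table. H2afy, which encodes the macroH2A histone variants, had 87.8, 87.6 and 89.5% against 83.4, 83.8 and 81.6%, at 0.054 with an FDR of 0.00111 in the authors' deposited table. Mapk14, the p38 alpha kinase, had 68.5, 77.2 and 71.7% against 80.7, 82.1 and 83.5%, at -0.096 with an FDR of 0.0119 in the authors' deposited table, just short of the size for a call. In these 3 pairs the sets did not overlap.

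For the other 13 textbook pairs the authors' deposited table gave no FDR below 0.05. The receptor tyrosine kinase Fgfr2 carried the upstream, epithelial IIIb exon in 99.2% of the pair over all libraries, and in Fgfr3 the corresponding exon held 90.2%. Actn1 stood at 99.6% upstream. The JNK kinase genes Mapk8 and Mapk9 used mainly the downstream exon, with upstream shares of 3.59% and 11.8%. Slc25a3, the mitochondrial phosphate carrier, had 2.16% in a pair of 224 and 122 nt and 0.0763% in its fully coding pair of 125 and 122 nt, and the tyrosine kinase gene Fyn 15.5%, on 13 reads in the lowest library. Cask, Mef2d and Dnm1 were above 90% upstream, at 93.4, 94.9 and 97.3%. The Dnm1 value is for a pair of 139 and 52 nt, and its second pair, with both exons of 139 nt and 72.3% identity, stood at 86%. Mixed use was found in Mef2a, at 57.5%, in P4ha1, a collagen prolyl hydroxylase, at 47.4%, and in the dynamin gene Dnm2. Dnm2 had 52.3, 54.7 and 49.2% against 56.9, 61.9 and 57.9%, and P4ha1 36.4, 40.7 and 39.6% against 57.6, 65.4 and 44.7%. In both genes the sets did not overlap, but the authors' deposited table gave FDRs of 0.103 and 0.438. P4ha1 had 11 reads in its lowest library and a difference of -0.17 in the authors' deposited table.

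**Figure D5:**
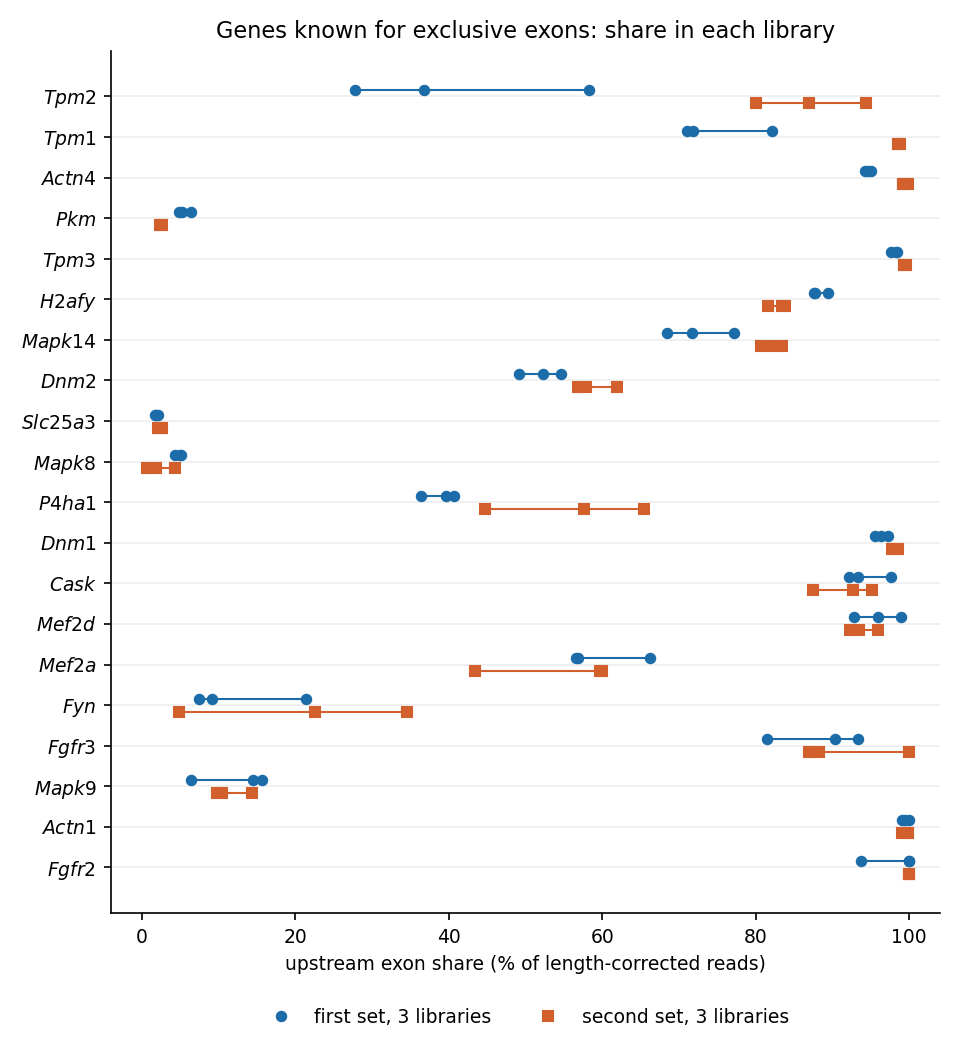
Upstream exon share (x axis, % of length-corrected reads) in each library for 20 genes known for exclusive exons, ordered by the authors' p-value, with circles for the first set and squares for the second. Pkm, Mapk8 and Slc25a3 sit near 0 in all libraries, and Fgfr2, Actn1 and Tpm3 near 100%.

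The exons of some pairs are near copies of each other. In 27 pairs, in Dmbt1, Gtf2ird1, Ptprh, Gm1123 and Firre, the exons were at least 90% identical, and none of them was called. Of these, 22 belong to Dmbt1, a mucin-like glycoprotein of the gut surface with many copies of the same scavenger-receptor domain. Dmbt1 gave 105 events in all, 3.54% of the total, and between 18.2 and 26.7% of the reads of a library over the events. The 3 pairs of highest identity were 1 of Gtf2ird1, with identical exons of 193 nt, and 2 of Dmbt1, at 97%. In the Gtf2ird1 pair the upstream exon share was 68.5 to 74.1% in the first set and 67.8 to 71.9% in the second. The Dmbt1 pairs stood at 13.9 to 14.4% against 14.1 to 16.4%, and at 43.3 to 47.0% against 42.5 to 45.4%. Reads within identical exons cannot be assigned to one copy, so these shares are uncertain, and an annotated transcript holds both exons in each case.

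At a mean of 20 reads or more, the table of skipped exons lists both exons of 2325 of the 2601 pairs. In 1731 of these (74.5%) both exons were included above 0.95 in every such listing. Each listing sets 1 exon against its own flanking exons, so it does not show that a transcript carries both. Of the 1731 pairs, 10 share no annotated transcript, Tead3 among them. The 1731 near-constitutive pairs gave 8 calls, 0.462%. Their median upstream exon share was 44.8, 45.5 and 46.2% in the first set and 44.5, 44.7 and 44.2% in the second, and of those whose sets did not overlap 192 were higher in the first set and 59 in the second. This small shift runs through pairs whose exons were each included above 0.95 as skipped exons, and its part in the calls was not tested. In the 113 pairs with no shared transcript the median upstream exon share was 56.8, 58.3 and 59.5% in the first set. It was 61.6, 61.9 and 60.9% in the second set, so these medians moved the other way. Pair by pair, the median difference was 0.001, with 57 pairs above 0 and 49 below it in the authors' deposited table. Where the sets of these 113 pairs did not overlap, 8 had the first set above the second and 15 the second above the first.

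For the 39 called pairs, the skipped exon table gives the fate of each exon that is listed at the same read minimum. Of the 37725 skipped exon events at that minimum, 1.68% are called. Both exons were called as skipped exons in 3 pairs (Relch, Sbf2 and Tpm1), the upstream exon alone in 10, the downstream exon alone in 6 and neither in 20. In 12 of 13 called upstream exons the sign was that of the pair, and in 8 of 9 called downstream exons it was the opposite. Both tables count the same reads, so these are not independent measurements. For Tpm1 the authors' deposited table of skipped exons gave -0.419 for the upstream exon and 0.145 for the downstream exon.

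Gene levels are single FPKM values per genotype from the authors' deposited table, with no spread. Ptbp1, the deleted gene, went from 230 FPKM (WT) to 123 FPKM (PTBP1_KO) at a q-value of 0.0125. Of the 39 genes with a called pair, 1 passed the authors' q-value threshold of 0.05, beside 0.537% of the 15460 genes tested. That gene was Tpm1, at 192 FPKM (WT) and 121 FPKM (PTBP1_KO), with a log2 fold change of -0.67 and a q-value of 0.0125 in the authors' deposited table. Tead3 stood at 20.7 and 35.0 FPKM with a q-value of 0.0842. Dmbt1 and Fgfr2 are listed at 0 with the status HIDATA, so their gene levels were not used.

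The 11 epithelial marker genes stood at 6.78 FPKM or higher in both groups. Of 9 stromal, muscle and endothelial markers, 8 were under 1 FPKM in both groups, and the list summed to 7.12 FPKM in WT and 8.04 FPKM in PTBP1_KO. Of 8 immune markers 1 passed the q-value threshold, Cd8a, at 4.3 and 7.52 FPKM, and the list summed to 32.3 and 47.8 FPKM. No marker of these lists was at 0. Tropomyosin genes and Hsh2d are also expressed in such cells, and the part of these cells in the exon shares was not tested.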

How the data were processed

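For the 3 WT and 3 PTBP1_KO libraries, the submitters' processing notes name STAR 2.6.1d, Trimmomatic 0.38, bcl2fastq 2.20, Cuffdiff and Cufflinks, with the build mm10. The version of the splicing program is not given in the sources used here. The splicing tables hold reads per library and form, with an inclusion level difference score, p-values and FDRs computed by the authors, per the file headers. The gene table holds the authors' FPKM per group with log2 fold changes, p-values and q-values, per the file headers.

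From these, the upstream exon share of each library was computed from reads and form lengths. A mean of 20 reads over 6 libraries, the authors' FDR below 0.05 and a difference of 0.1 defined a call. The reads over all events came to 4086471 to 5389413 per library, and 90 events had a library under 20 reads. Mean reads per event had a median of 383, the lowest event kept had 20 and the highest left out 19.7, with 212 events of matching frame left out. No test was run on the sets, whose genotype the headers do not give. Exons were matched to GENCODE M21, and pairs were aligned globally with Biopython 1.88 (match 1, mismatch -1, gap opening -2, gap extension -0.5), which was tested on simulated data. Python 3.11.15, numpy 2.4.6, pandas 2.3.3 and matplotlib 3.10.9 were used. In the tables used, 2 columns of inclusion levels per library were left out, and 3 further splicing tables were not used. The planned count of pyrimidine motifs was not made, since no intron sequence was used here.

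Named genes were the 20 called genes of largest difference (the first 8 with all library values), the pair with the smallest p of 27 preset genes, and the 3 most identical pairs. The members and lists were chosen with earlier results of these data known. Alternatives changed the read minimum, the difference, the FDR, the pairs counted, the length correction and the libraries used. The individual values of 1 called pair are not reported here.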

Additional observations from a re-analysis of the deposited data

How the results depend on the processing

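The count of called events was 40. It became 74 with a difference of 0.05 and 17 with 0.2, 8 for exons of equal length only and 9 for pairs with no shared transcript, each by its own construction as a wider or narrower choice. It stayed within 1.5 times with a mean of 10 reads (44), a mean of 50 reads (32), 20 reads in every library (35), an FDR of 0.01 (27), and 1 event per pair (39). Chosen after seeing the data, leaving out pairs of at least 90% identity gave 40 and leaving out each library in turn 37 to 40. For pairs of equal length the median identity was 60% with gaps and 52.7% without, against 45.1% with gaps over all pairs. For the 39 called pairs, 222 of 234 differences without 1 library kept their direction and stayed at 0.1 or more, and 12 fell below 0.1, among them values of Mia2, Tdrd7, Mllt10, Hpf1, Dab1, Lsr and Btnl5-ps, most of which are named here only for that. Of 126 such values for 21 named pairs that were not called, 8 changed direction, in Fgfr3, Mapk9 and Actn1, and 4 came to 0.1 or more, in Mapk14 and Fyn. Without the length correction, or with reads summed within a set, none of the 60 differences changed direction or its side of 0.1. No paired analysis was possible because the library columns carry no sample numbers of the labels and the authors' comparison was used as deposited. Few reads limit Clta, Tpm2, Relch, Cspp1, Dab1, Fyn and P4ha1, each with a library under 20 reads.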
